A study of Oryza sativa with 2 samples.

Results

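The genes described here are 6 rice genes of RNA silencing: the Dicer-like genes DCL2A (LOC4333337) and DCL4 (LOC4336362, also listed as SHO1), the RNA-dependent RNA polymerase genes RDR2 (LOC4336092), RDR4 (LOC4327336) and SHL2 (LOC4323938), and SGS3 (LOC4351724). The rule that chose them uses names and no measured value. Every gene whose symbol or synonym began with DCL or RDR and a digit, or with SGS3, HEN1, SHL2 or SHO1, was taken from the rice gene table and joined to the array annotation by gene identifier. This gave 6 of the 17905 genes read on the arrays, with 9 of the 22436 probe sets that the annotation ties to a single gene. No entry began with HEN1, and DCL1, DCL3 and RDR1 were not analysed here.

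RNA was measured 2 days after pollination in endosperm, the nourishing tissue of the seed, of rice cultivar Zhonghua11, a japonica type. The tissue was picked by hand under a dissecting scope, by its morphology, at a stage the submitters place before cell walls form. The plants grew in a phytotron, lit for 12 h at 28 °C and kept dark for 12 h at 22 °C, with no treatment or altered genotype given. There was 1 group of 2 samples, each on 1 Affymetrix rice array, so the values are levels with the spread between arrays and no group was compared with another. The labels do not say whether the samples came from separate plants, so this spread may be technical.

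RNA silencing in plants starts from double-stranded RNA. RNA-dependent RNA polymerases make it by copying single-stranded transcripts, Dicer-like enzymes cut it into small RNAs, and argonaute proteins carry those small RNAs to matching RNA or chromatin. In the trans-acting siRNA branch, SGS3 protects a cleaved precursor, the RDR6-type polymerase copies it and DCL4 dices it in register. In rice, SHL2 is the RDR6-type gene, and its loss, like that of SHO1, disturbs formation of the shoot in the embryo. In the chromatin branch, RDR2 makes the precursors of the small RNAs that guide DNA methylation.

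All values are MAS5 signals, the linear brightness of a probe set as deposited by the authors. Background was set on each array at the 95th percentile of 64 probe sets against reporter or transgene sequences, at 52.7 on array 1 and 37.9 on array 2. A gene was called above background only if it was so on both arrays. The 2 arrays correlated with Pearson's r of 0.936 over 57194 rice probe sets, which are not replicates. Of the genes listed as endosperm markers, 4 of 4 read (NF-YB1, SWEET11, AGPS2 and RSR1) were above background, beside 74.1% of all genes. SSIIa found no match. How specific these genes are to endosperm was not tested. Of the markers of other tissues, MADS29 and MADS21 of seed coat and nucellus and the chlorophyll-binding gene CAB2R were above background as well. MADS13 and OSH1, a meristem gene, were not. CAB2R stood at signals of 2747 and 3000 on arrays 1 and 2, MADS29 at 305 and 339, and MADS21 at 144 and 117. Of the endosperm list, AGPS2 stood at 19457 and 17686, SWEET11 at 11223 and 13093, NF-YB1 at 2546 and 3100, and RSR1 at 160 and 112. The part of other tissue in the levels below was not tested. The ratio of 3′ to 5′ signal was 13.1 and 13.7 for the actin control and between 2.99 and 4.45 for GAPDH and cyclophilin, and where the probe sets of the silencing genes lie along their transcripts was not examined.

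All 6 silencing genes were above background on both arrays, beside 74.1% of all genes read through 1 probe set each. Of their 9 probe sets, 8 were above background, beside 70.9% of all single-gene probe sets. The median of their mean log2 signals was 10.54, against 8.58 over all 17905 genes and 9.77 over the 13263 genes above background. Probe affinity differs between probe sets, so these signals do not rank the genes by transcript number. The arrays read RNA pooled over the tissue, in which the number of nuclei or cells that use a gene and the RNA from each cannot be told apart.

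The 3 genes of the trans-acting siRNA branch were all detected. SHL2, which makes the double-stranded precursor, read 857 on array 1 and 915 on array 2. These signals were 16.2 and 24.1 times the background of their arrays, and the mean log2 signal was 9.79 ± 0.07 (SD, n = 2). The arrays differed by 0.10 in log2 signal, array 2 being the higher.

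DCL4, the Dicer of this branch, read 1623 and 1685 on arrays 1 and 2. These were 30.8 and 44.5 times background, with a mean log2 signal of 10.69 ± 0.04 (SD, n = 2). The signals of SHL2 and DCL4 thus differed between the arrays by 1.07-fold and 1.04-fold.

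SGS3, the partner of the RDR6-type polymerase, was read through 2 probe sets. The brighter read 9114 on array 1 and 6992 on array 2, a mean log2 signal of 12.96 ± 0.27 (SD, n = 2). The dimmer read 4132 and 3384, a mean of 11.87 ± 0.20 (SD, n = 2). Both were far above background, by at least 78.3 times on either array, and both were lower on array 2, by 1.30-fold and 1.22-fold. The brighter probe set exceeded the dimmer by 2.21-fold on array 1 and by 2.07-fold on array 2, so both arrays gave nearly the same gap. AGO7, the argonaute that acts upstream of SGS3 in this branch, is in the gene table as SHL4 and SHO2 but was not analysed here.

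RDR2, the polymerase of the chromatin branch, was detected through its 1 probe set. It read 1500 on array 1 and 1192 on array 2, 28.4 and 31.4 times background, with a mean log2 signal of 10.39 ± 0.23 (SD, n = 2). Array 1 was the higher by 1.26-fold. AGO4B and DRM2, which act after RDR2 in this branch, were above background too, beside 74.1% of all genes. They are named here for their role, chosen after their values were seen. AGO4B, an argonaute that binds the small RNAs of this branch, read 2077 and 1729 on arrays 1 and 2. DRM2, the de novo DNA methyltransferase, read 2309 and 2197.

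DCL2A, a Dicer known from antiviral silencing in plants, was read through 2 probe sets that disagreed. One read 3623 and 3667 on arrays 1 and 2, a mean log2 signal of 11.83 ± 0.01 (SD, n = 2) and the closest match between arrays among the 9 probe sets. The other read 157.9 and 90.4, a mean of 6.90 ± 0.57 (SD, n = 2), which was 2.99 and 2.38 times background. The brighter exceeded the dimmer by 22.9-fold on array 1 and 40.6-fold on array 2. Both carry the suffix _s_at, which Affymetrix gives to probe sets that match several transcripts, so signal from a close relative such as DCL2B cannot be told apart from that of DCL2A.

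RDR4 belongs to a class of RNA-dependent RNA polymerases whose role in plants is little known. Its 2 probe sets disagreed as to detection. One read 203 on array 1 and 147 on array 2, 3.84 and 3.88 times background, with a mean log2 signal of 7.43 ± 0.33 (SD, n = 2). The other read 14.2 and 5.96, which was below background on both arrays. Both carry the suffix _x_at, given to probe sets with probes that can bind unrelated sequences as well, so the detection of RDR4 rests on 1 probe set of the less specific kind. The other 4 genes besides DCL2A and RDR4 were read through probe sets with the suffix _at, meant for a single transcript.

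**Figure D1:**
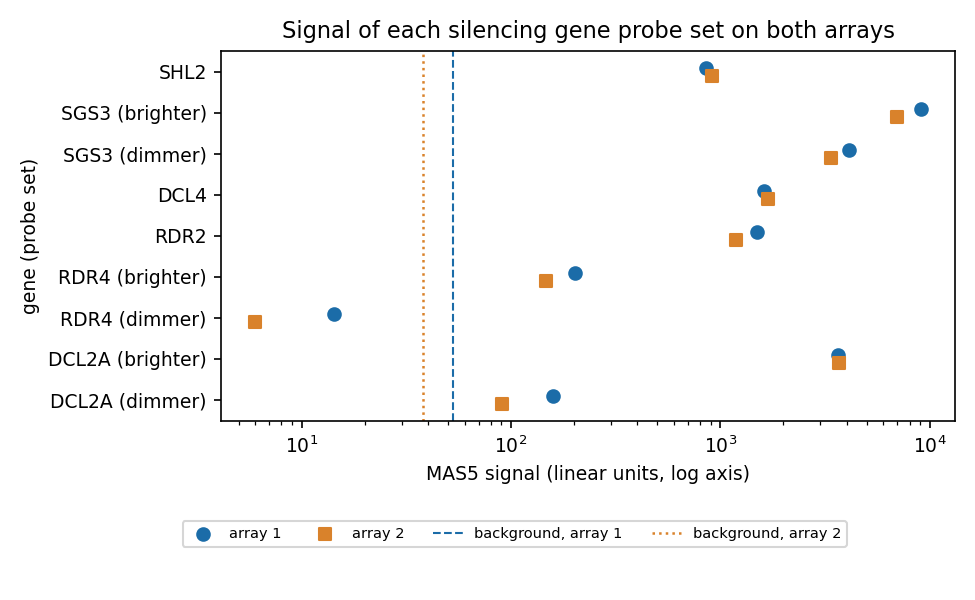
MAS5 signal (linear units on a log axis) of the 9 probe sets of the 6 silencing genes, with circles for array 1, squares for array 2 and vertical lines for the background of each array (52.7 and 37.9). All probe sets but the dimmer one of RDR4 (14.2 and 5.96) lie to the right of both lines, and the probe sets of DCL2A and of RDR4 lie far apart.

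Gaps between probe sets of a gene were common on these arrays. Of 1293 genes with 2 probe sets that were both above background on both arrays, 41% had them over 4-fold apart in mean log2 signal, and the median gap was 2.93-fold. DCL2A (30.5-fold) was over that limit and SGS3 (2.14-fold) was not. A wider gap than that of DCL2A was found in 7.35% of these genes, and a wider one than that of SGS3 in 63.8%. The dimmer RDR4 probe set was below background, so its gap to the brighter one is only bounded, at 3.84-fold or more on array 1 and 3.88-fold or more on array 2 when background stands in for it, and RDR4 is not counted here.

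None of the 6 genes, each read through its chosen probe set, differed by over 2-fold between the arrays, beside 0.844% of the 13263 genes above background. SGS3, RDR2 and RDR4 were lower on array 2 and SHL2, DCL4 and DCL2A higher, a count of 3 in 6 beside 52.6% of all genes above background that were lower on array 2. The median log2 difference, array 2 minus array 1, was -0.16 over the 6 genes and -0.01 over all genes above background. It was -0.33 both with the probe sets of each gene averaged and with every probe set as its own value, so its size depends on how the dimmer probe sets are counted. With 2 arrays in 1 group these differences are the spread between samples and not an effect.

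For scale, each probe set was set beside the 1000 single-gene probe sets above background that were nearest to it in mean signal. The difference of the brighter SGS3 probe set was -0.38, while the 5th to 95th percentile of its neighbours ran from -0.20 to 0.28. The dimmer SGS3 probe set, at -0.29, also lay below the range of its neighbours, -0.22 to 0.28. Both readings of SGS3 were thus lower on array 2 by more than most probe sets of like signal, though they share their transcript and their 2 samples and are not independent.

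RDR2, at -0.33, lay just below its range of -0.32 to 0.30. The dimmer DCL2A probe set, at -0.81, lay just below a wider range of -0.75 to 0.69, as spread grows at low signal. The brighter DCL2A probe set (0.02) lay well inside its range, so the lower value on array 2 was not shared by both readings of DCL2A. RDR4, at -0.46 with a range of -0.64 to 0.58, SHL2 and DCL4 were inside as well. By construction, each range leaves about 5% of the neighbours below it and about 5% above it. In all, 4 of the 8 probe sets above background were below their range, 4 were inside it and 0 were above it. No test was made of this count, since 2 pairs among the 8 probe sets read the same gene and the comparison was described with the values known.

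**Figure D2:**
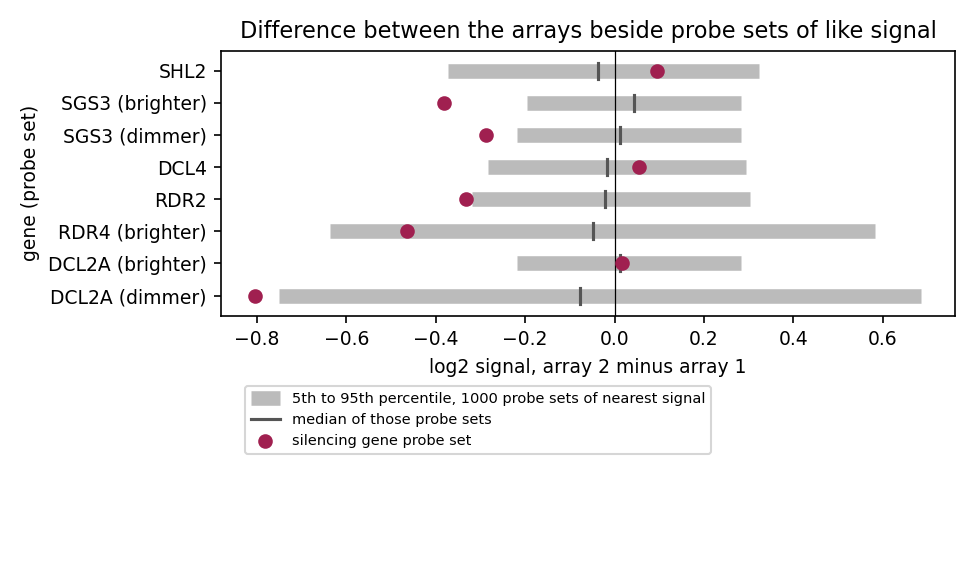
Difference in log2 signal, array 2 minus array 1, of the 8 silencing gene probe sets above background (points), beside the 5th to 95th percentile (bars) and the median (ticks) of the 1000 single-gene probe sets nearest in signal. Both SGS3 points (-0.38 and -0.29) lie left of their bars, RDR2 and the dimmer DCL2A probe set lie at or just past the left end, and the others lie inside.

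Other genes of small RNA silencing and DNA methylation were read from lists of genes found by name in the same table. The lists do not cover the whole pathway. They held 29 genes in all, of which 26 had a single-gene probe set. Of these 26, 24 were above background on both arrays, again beside 74.1% of all genes. Their median of mean log2 signals was 10.21. Of those above background, 0 were over 2-fold apart between arrays, beside 0.844% of all genes above background. These counts rest on 1 probe set per gene. AGO18, DRM3 and ROS1C each also had a probe set too dim to be above background on both arrays. Its mean log2 signal was 4.49, 4.68 and 3.77, against 13.17, 10.08 and 9.16 for the chosen one. For LOC4351288 of the DRB family the chosen probe set, at 7.62, was the dimmer, beside 11.00. For AGO1B the chosen probe set, at 12.78, was the brighter, beside 10.39.

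Argonautes bind the small RNAs that Dicer-like enzymes cut. Of 13 argonaute genes read, 11 passed background, beside 74.1% of all genes, and the median log2 signal of the list was 10.89. The list ran from AGO1D, below background at 36.2 and 36.5, to AGO4A, which acts in DNA methylation, at 14156 and 14293 on arrays 1 and 2. AGO17 was the other argonaute not above background on both arrays, with 66.4 on array 1, above background, and 34.5 on array 2, below it. Its log2 difference of -0.94 was the widest of the list.

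Of 6 genes of DNA methylation read, 6 passed background, beside 74.1% of all genes, and the median log2 signal of the list was 10.61. This list also holds the DNA glycosylase gene ROS1C, which removes methylation. Its lowest and highest signals belonged to the pair of maintenance DNA methyltransferase genes MET1A (468 and 395 on arrays 1 and 2) and MET1B (9902 and 10205). The widest log2 difference between the arrays among these 6 genes was that of MET1A, -0.25, and 5 of 6 were lower on array 2, beside the 52.6% given above for all genes above background.

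The other small RNA factors found by name were all of the DRB family, double-stranded RNA-binding proteins of which some partner Dicer-like enzymes in Arabidopsis. Of 7 read, 7 passed background, beside 74.1% of all genes, and the median log2 signal of these 7 was 9.35. They ran from LOC4347527, listed as both DRB2 and DRB5, at 105 and 127, to DRB4 at 7908 and 7181 on arrays 1 and 2. In Arabidopsis DRB4 is the partner of DCL4, and whether the rice gene of that name is its counterpart was not tested. Several of these genes share synonyms in the table, so the family names other than DRB4 do not always tell 1 gene from another.

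**Figure D3:**
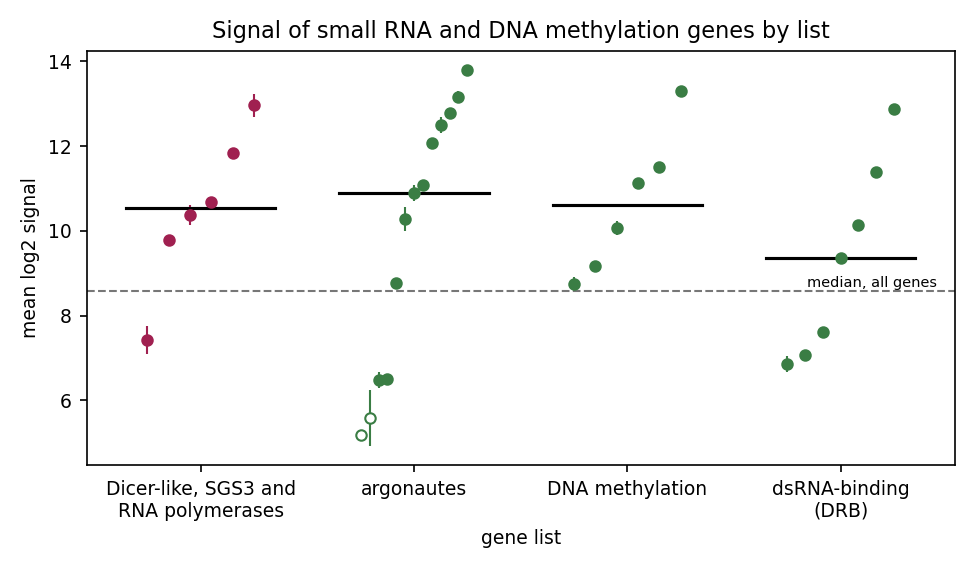
Mean log2 signal of each gene read, through 1 probe set per gene, for the 6 silencing genes and the 3 other lists, with bars for the SD of 2 arrays, filled points for genes above background on both arrays and open points for the others. Black lines are list medians (10.54, 10.89, 10.61 and 9.35) and the dashed line is the median of all genes (8.58). The only open points are the argonautes AGO1D and AGO17.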

How the data were processed

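Total RNA was amplified, biotin-labelled and hybridized to 1-colour Affymetrix rice arrays, per the labels' protocols. The deposited values are linear intensities, 1 per probe set and array. The submitters' processing notes name MAS5 with no version or settings. With 2% of values trimmed at each end, the mean was 500.1 on both arrays, so each had been scaled to the same level. The number of arrays limits the precision.

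Values were taken to log2 as deposited, with no pseudocount and no further normalization. Genes came from a platform annotation of 2016 (22436 probe sets with 1 gene, 95 with several and 34850 with none listed), and names from the gene table of assembly ASM3414082v1, used for names only. For gene counts, 1 probe set stood for each gene, taken by suffix (_at before _a_at before _s_at before _x_at) and, among equals, as the one with the highest mean. All member probe sets are described. Pathway genes named are the ends of each list, those not above background, those whose probe sets disagreed most, and a few by role. The members and lists were chosen with earlier results of these data known. With 1 group there was no test. The steps were tested on simulated data. Alternatives for background, normalization, pseudocount, probe set and replicates were tried. Python 3.11.15, pandas 2.3.3, NumPy 2.4.6, SciPy 1.17.1 and matplotlib 3.10.9 were used.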

Additional observations from a re-analysis of the deposited data

How the results depend on the processing

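The 6 silencing genes stayed above background with background raised to the highest reporter and after quantile normalization. Background at the 90th percentile of reporters, the brightest probe set per gene and either array alone also gave 6, but could not have lowered the count. The first and last of these ask less of a gene, and the chosen probe set of each gene was already its brightest. With every probe set as its own value 8 of 9 were above background. None of those above background differed by over 2-fold between arrays under any alternative run. Their median log2 signal was 10.47 without replicate 1 (array 2 alone) and 10.61 without replicate 2. With the mean over the probe sets of each gene it was 10.09, since the dimmer DCL2A probe set then lowers that gene past the middle of the list. That setting also took the median difference from -0.16 to -0.33, the difference of DCL2A from 0.02 to -0.39 and that of RDR4 from -0.46 to -0.86. With every probe set as its own value the median difference was -0.33 as well. After quantile normalization DCL2A stood at -0.0016 and SGS3 at -0.43. With the highest reporter as background, 22 of the 26 pathway genes were above background and 11734 of all genes. No paired analysis was possible because there was 1 group. Signals near background limit the readings of RDR4 and of the dimmer DCL2A probe set. The latter read 90.4 on array 2, below the highest reporter of that array, 98.7.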
